A study of Lentinus brumalis with 11 samples.

Results

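Transporters of the major facilitator superfamily, encoded by 6 genes of the white-rot fungus Polyporus brumalis, were followed from liquid culture to wheat straw. The genes were chosen by their level on straw over that in the control. They are 6 of the 18244 genes counted, and 6 of the 14 major facilitator genes in the study's own core list, which holds genes from groups of co-regulated genes with a mean above 12 on the log2 scale of normalized counts on every straw day and below 12 in the control. That list was drawn from these same libraries, and no rule is stated for taking these 6 of the 14, whose values were known when they were taken. The genes with the protein numbers 1452357, 1451844, 334352 and 1334848 are annotated as predicted transporters of the superfamily, and 1454421 and 1394716 are annotated as permeases of it.

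Major facilitator proteins are carriers of the cell membrane and of the membranes of organelles. They carry small solutes such as sugars, amino acids, ions, peptides and drugs, either down the solute's own gradient or coupled to a gradient of protons. In fungi the superfamily includes sugar importers that take up the breakdown products of plant polysaccharides and exporters that expel toxic compounds. The annotation of these genes names the superfamily and gives no substrate or direction of transport.

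The dikaryotic strain BRFM 985 was grown in 4 groups. The control (3 libraries) was mycelium from a 10-day culture in liquid medium with 2% malt extract. The Day 4 (2 libraries), Day 10 (3 libraries) and Day 15 (3 libraries) groups were first grown for 6 days in the same medium and then moved to solid-state fermentation (SSF) on sterilized wheat straw with added copper, iron and manganese salts in packed-bed columns at 28 °C. The substrate, the solid support, the added metals and the culture system therefore changed together. With the 6 days in liquid medium counted, the Day 10 and Day 15 cultures were also older than the control. The effects of all these cannot be told apart in a comparison with the control.

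Library totals ran from 20368063 to 42408348 counts, with the control libraries between 35964192 and 42408348 and the straw libraries between 20368063 and 36542662. The study calls the cultures biological replicates. The libraries hold RNA of whole cultures, so fewer cells of a kind and less RNA per cell cannot be told apart.

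All 6 genes were higher in every straw library than in every control library. This is the property for which they were chosen, so their folds over the control are given as a description, with no test. Of the 15462 genes tested, 21.5% showed the same separation of libraries. The summed share of the library total that the 6 genes took up was 0.0220% ± 0.000384 (SD) in the 3 control libraries. It was 0.166% ± 0.00843 in the 2 libraries of Day 4, 0.197% ± 0.00938 in the 3 of Day 10 and 0.255% ± 0.00181 in the 3 of Day 15. By group mean, 2 of the 6 were highest at Day 4, 1 at Day 10 and 3 at Day 15. Not every such order held in the tests between days given further on: for 1394716 Days 10 and 15 did not differ by the test, and the highest days of 1451844 and 1452357 rest on calls that single libraries end.

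**Figure D1:**
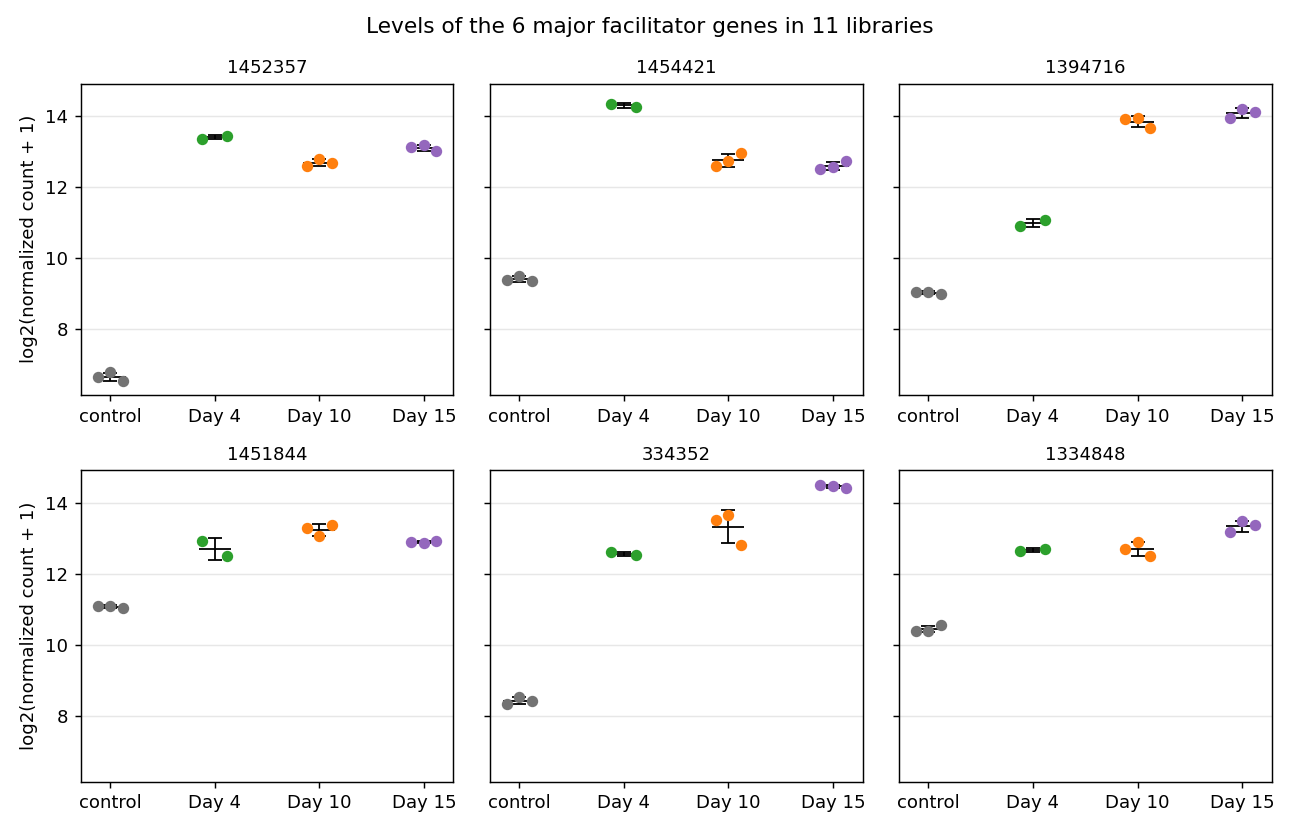
Level of each of the 6 genes in the 11 libraries, as log2(normalized count + 1) on the vertical axis, by group on the horizontal axis. Points are libraries, and the bars show the mean and the SD of each group. The control points lie below all straw points in each panel, 1452357 and 1454421 are highest at Day 4, and 1394716 and 334352 climb after Day 4.

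The predicted transporter 1452357 had the largest rise of the 6. Its normalized counts, scaled by DESeq2 size factors, were 99.7, 109 and 93.1 in the control, 10640 and 11298 at Day 4, and 6207, 7140 and 6573 at Day 10. The Day 15 libraries gave 9004, 9323 and 8286. The 2 Day 4 libraries were the highest, the Day 10 libraries were the lowest on straw, and no straw day overlapped another. The edgeR log2 fold change over the control was 6.72 ± 0.12 (SE) at Day 4, a 106-fold rise, then 6.02 ± 0.12 at Day 10 and 6.44 ± 0.12 at Day 15.

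The permease 1454421 was the other gene that peaked at Day 4. Its normalized counts were 674, 730 and 657 in the control, 20994 and 19716 at Day 4, and 6203, 6831 and 8001 at Day 10. At Day 15 they were 5922, 6064 and 6802. Both Day 4 libraries held more than 2 times the count of any later library, while the Day 10 and Day 15 libraries overlapped. The log2 fold change over the control was 4.84 ± 0.13 at Day 4, which is 28.7-fold, 3.33 ± 0.12 at Day 10 and 3.17 ± 0.12 at Day 15.

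The other permease, 1394716, rose late. Its normalized counts were 529, 533 and 506 in the control, 1932 and 2161 at Day 4, and 15519, 15952 and 13165 at Day 10. The Day 15 counts were 15813, 19142 and 17864. The Day 4 libraries stood between the control and the later days without overlap on either side, and the Day 10 and Day 15 ranges overlapped. The log2 fold change over the control went from 1.92 ± 0.12 at Day 4 (3.80-fold) to 4.81 ± 0.12 at Day 10 and 5.05 ± 0.12 at Day 15 (33.2-fold), so that 38.1% of its highest log2 rise was present at Day 4.

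The predicted transporter 334352 climbed on each day sampled. Its normalized counts were 324, 368 and 343 in the control, 6270 and 5928 at Day 4, and 11747, 13114 and 7239 at Day 10. At Day 15 they reached 23507, 22972 and 21946. The third Day 10 library lay nearer to Day 4 than its companions did, which gave this gene the widest spread among the 6 genes and 4 groups (SD 0.46 on the log2 scale, n = 3), yet no straw day overlapped another. The log2 fold change over the control was 4.10 ± 0.20 at Day 4 (17.1-fold), 4.93 ± 0.19 at Day 10 (30.6-fold) and 6.03 ± 0.20 at Day 15 (65.2-fold).

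The predicted transporter 1334848 had most of its rise at Day 4 and a further one at the end. Its normalized counts were 1356, 1355 and 1504 in the control, 6403 and 6755 at Day 4, and 6656, 7659 and 5786 at Day 10. The Day 15 libraries held 9344, 11486 and 10681. Day 4 and Day 10 overlapped, and all 3 Day 15 libraries were above both. The log2 fold change over the control was 2.18 ± 0.13 (4.54-fold) at Day 4 and 2.88 ± 0.12 (7.36-fold) at Day 15, with 75.8% of the highest log2 rise present at Day 4.

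The predicted transporter 1451844 had the smallest rise of the 6. Its normalized counts were 2220, 2214 and 2101 in the control, 7839 and 5786 at Day 4, and 10032, 8594 and 10634 at Day 10. At Day 15 they stood at 7704, 7525 and 7809. Day 10 was the highest group, and the Day 15 values fell between the 2 Day 4 values. The log2 fold change over the control was 1.60 ± 0.13 (3.03-fold), 2.15 ± 0.12 (4.42-fold) and 1.80 ± 0.12 (3.47-fold) at Days 4, 10 and 15.

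On the log2 scale on which the study set its limit of 12, the control means of the 6 genes were all below it, with 11.09 ± 0.04 (SD, n = 3) for 1451844 the closest. At Day 4 the permease 1394716 had levels of 10.92 and 11.08 in its 2 libraries, below 12, although its group of co-regulated genes was listed as high on that day, and the means of the other 5 were above it. At Days 10 and 15 all 6 means were above 12, the lowest being 12.61 ± 0.11 for 1454421 at Day 15. The nearest values on either side of the limit were thus 12.57 ± 0.06 (334352 at Day 4) and 11.09 ± 0.04 (1451844 in the control).

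The values just given are set against the limit of 12 and not against each other. For an order among the genes, levels were divided by the length of the gene in the annotation, introns included, as CPM per kb. In the control the order was 1451844 (33.0 CPM per kb), 1334848 (22.3), 1454421 (11.1), 334352 (6.62), 1394716 (6.47) and 1452357 (2.25). The order at Day 4 was different, with 1454421 first (246 CPM per kb), then 1452357 (183), 334352 (87.6), 1334848 (78.2), 1451844 (77.3) and 1394716 (18.9). At Day 15 it was 334352 (361 CPM per kb), 1394716 (179), 1452357 (163), 1334848 (137), 1451844 (95.8) and 1454421 (83.2), so the gene at the top on Day 4 was at the bottom on Day 15. These lengths hold introns, and the order of close neighbours such as 334352 and 1394716 in the control was not tested.

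Changes between the straw days are not the contrast named in the choice of the genes, and they were tested with edgeR over all 15462 genes, with Benjamini-Hochberg adjustment. The core list asked for a high level on every straw day, and it is not known whether differences between those days bore on which 6 genes were taken. From Day 4 to Day 10, 3 of the 6 rose, 2 fell and 1 was not called, against 22.3% of all genes tested that rose and 22.0% that fell. The permease 1394716 rose by 2.89 ± 0.13 on the log2 scale (adjusted p = 5.3e-09), more than 98.9% of the genes tested. The transporters 334352 (0.84 ± 0.19, adjusted p = 0.00296) and 1451844 (0.55 ± 0.13, adjusted p = 0.00508) also rose, and without the second Day 4 library 1451844 was at 0.35 with an adjusted p of 0.0840. The permease 1454421 fell by 1.51 ± 0.12 on the log2 scale (adjusted p = 5.4e-07) and 1452357 fell by 0.70 ± 0.10 (adjusted p = 1.1e-04). For 1334848 the difference was 0.05 ± 0.13 (adjusted p = 0.767), with a 95% interval of -0.19 to 0.30.

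From Day 4 to Day 15, 3 of the 6 rose, 2 fell and 1 was not called, where 28.6% of all genes tested rose and 29.2% fell. The rises were those of 1394716 (3.13 ± 0.13, edgeR adjusted p = 1.4e-09), 334352 (1.93 ± 0.20, adjusted p = 2.9e-06) and 1334848 (0.70 ± 0.13, adjusted p = 4.3e-04). The 1454421 permease fell by 1.68 ± 0.12, a 3.20-fold lower level (adjusted p = 1.1e-07). The call on 1452357 was a fall by 0.28 ± 0.10 (adjusted p = 0.0299), and it was lost with 6 of the 11 libraries left out one at a time, the highest adjusted p being 0.167 without the second Day 4 library. For 1451844 the difference was 0.20 ± 0.13 (adjusted p = 0.222), with a 95% interval of -0.06 to 0.46, and without the first Day 4 library it was 0.43 (adjusted p = 0.0300).

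From Day 10 to Day 15, 3 of the 6 rose, 1 fell and 2 were not called, where 11.7% of all genes tested rose and 12.4% fell. The predicted transporters 334352 (1.09 ± 0.17, edgeR adjusted p = 6.0e-04), 1334848 (0.65 ± 0.11, adjusted p = 0.00140) and 1452357 (0.41 ± 0.09, adjusted p = 0.00595) rose. The change of 334352 was above that of 98.1% of the genes tested. The fourth predicted transporter, 1451844, fell by 0.35 ± 0.12 (adjusted p = 0.0479), a call that was lost with 8 of the 11 libraries left out one at a time, with adjusted p from 0.0596 to 0.141. Neither permease was called: 1394716 differed by 0.24 ± 0.10 (adjusted p = 0.112, 95% interval 0.04 to 0.44 before adjustment over genes) and 1454421 by -0.17 ± 0.11 (adjusted p = 0.291, interval -0.38 to 0.05).

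**Figure D2:**
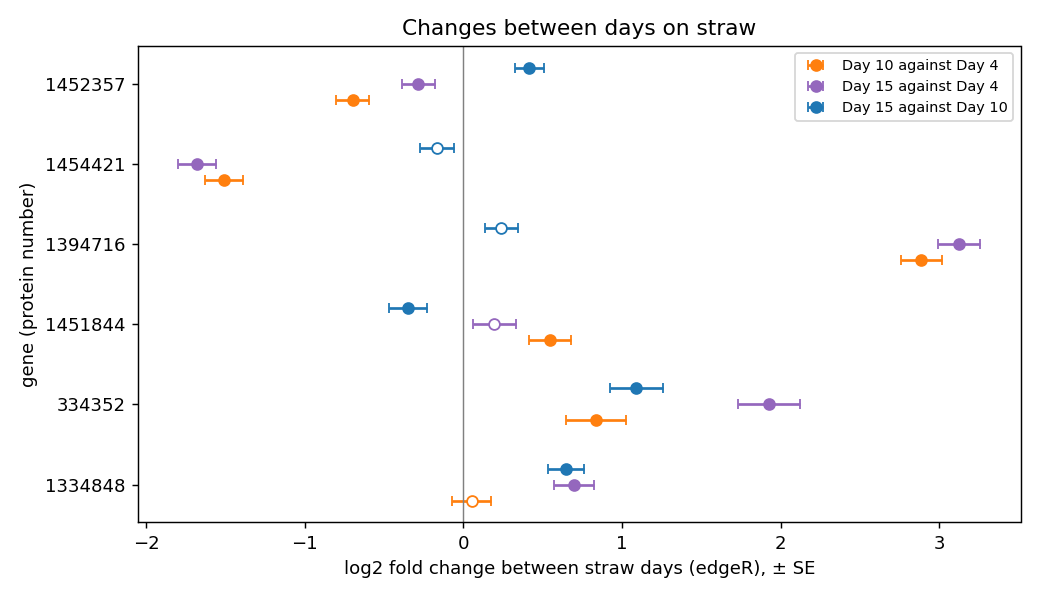
Log2 fold change of each gene between 2 straw days, from edgeR, with bars of 1 SE. Filled points passed an adjusted p of 0.05 and open points did not. The 2 permeases lie at opposite ends, 1394716 near 3 and 1454421 near -1.6 for the comparisons with Day 4, and the Day 15 to Day 10 points of both are open.

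The ratio of 2 genes within a library does not depend on how libraries are scaled, and it was compared between the 2 Day 4 libraries and the 6 later straw libraries for all 15 pairs of the 6 genes. An exact permutation test, two-sided, has 28 arrangements here and cannot give a p below 0.0357. That value was reached by 12 pairs, which is an adjusted p of 0.0446 over the 15 pairs. The pairs share genes and libraries, so their calls are not independent of each other. No pair could pass the adjustment by itself, since the adjusted value depends on how many pairs reach the smallest p. With any 1 straw library left out, or with Day 15 alone against Day 4, 0 pairs were called, and 14 or all 15 pairs kept their direction. The smallest p was then between 0.0476 and 0.143, and the smallest adjusted p between 0.0549 and 0.179. The ratio of the 2 permeases moved most: the log2 ratio of 1454421 to 1394716 counts was 3.19 and 3.44 in the 2 Day 4 libraries and from -1.66 to -0.72 in the later ones, a 24.3-fold change of the ratio. The ratio of 1452357 to 1394716 changed 11.3-fold, from a mean log2 ratio of 2.42 to -1.07, and that of 1454421 to 334352 changed 7.77-fold, from 1.74 to -1.22. The 3 pairs above the limit all held 1451844, with 1452357 (exact p = 0.0714, adjusted 0.0824), with 334352 (p = 0.25, adjusted 0.268) and with 1334848 (p = 1, a difference of 0.01 in log2 ratio).

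The other 8 major facilitator genes of the core list, with the 11 cytochrome P450 genes and the 4 glutathione S-transferase (GST) genes of the same list, were set beside these 6. P450 enzymes oxidize small lipophilic compounds, and GSTs join glutathione to reactive ones. The study drew up these lists too from the libraries used here, for a high level on straw, and so their medians over the control are no independent evidence of direction. The median log2 fold change over the control at Days 4, 10 and 15 was 3.14, 4.07 and 4.11 for the 6 genes, 3.04, 2.59 and 2.86 for the other 8 major facilitator genes, 3.91, 3.80 and 3.77 for the P450 genes and 3.78, 4.31 and 4.08 for the GST genes. Over all genes tested the median was -0.07, -0.02 and -0.02.

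From Day 4 to Day 15 the median change was 0.45 for the 6 genes, -0.19 for the other major facilitator genes, -0.29 for the P450 genes, -0.09 for the GST genes and 0.01 for all genes tested. Among the other 8 major facilitator genes 2 rose and 3 fell, among the 11 P450 genes 3 rose and 5 fell, and among the 4 GST genes 1 rose and 1 fell. Over all genes tested, 28.6% rose and 29.2% fell. The largest rise among the other major facilitator genes was that of the permease 540241 (1.65 ± 0.14 on the log2 scale, edgeR adjusted p = 4.2e-07), while 1422437 fell by 1.51 (adjusted p = 1.2e-06), the largest fall. Of the P450 genes, 1402446 of family CYP5136 fell by 1.58 (adjusted p = 2.5e-07) and 1537019 of family CYP5150 rose by 0.73. The GST gene 1357910 rose by 2.37 (adjusted p = 1.8e-07) and the GST gene 1364150 fell by 0.94.

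From Day 4 to Day 10 the counts of risen and fallen genes were 1 and 4 of the other 8 major facilitator genes, 1 and 6 of the 11 P450 genes, and 1 and 1 of the 4 GST genes. Over all genes tested, 22.3% rose and 22.0% fell. The fallen GST gene, 1364150, lost its call without the second Day 4 library (edgeR adjusted p = 0.402) or the first Day 10 library (adjusted p = 0.0845). The largest rises and falls belonged to the genes just named, apart from 1410594 of family CYP512, which rose by 0.70 and was the only P450 gene to rise. From Day 10 to Day 15 the counts were 2 and 2, 0 and 3, and 1 and 0, where 11.7% of all genes tested rose and 12.4% fell. At an unadjusted p under 0.05, 2 P450 genes were higher and 1 GST gene was lower, and the DESeq2 Wald test called 1 of each. The GST gene that rose was 1357910 (0.48 on the log2 scale), a call lost with 6 of the 11 libraries left out one at a time (edgeR adjusted p up to 0.128), and the fall of 1422437 by 0.38 was lost with 9 of the 11 (adjusted p up to 0.136). With 1 library left out, 0 to 1 of the other major facilitator genes fell in that interval. In it the P450 gene 1361826, also of family CYP512, fell by 0.61, the largest P450 fall. Over all 14 major facilitator genes, 3 of the 6 permeases and 1 of the 8 predicted transporters were not called between Day 4 and Day 15. Of all genes tested, 28.6% rose and 29.2% fell between these days. The permease 1486070 was near the limit (edgeR adjusted p = 0.0671). So was the transporter 1452357 (0.0299), whose call was lost with 6 of the 11 libraries left out one at a time. The difference between the 2 annotations was not tested.

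**Figure D3:**
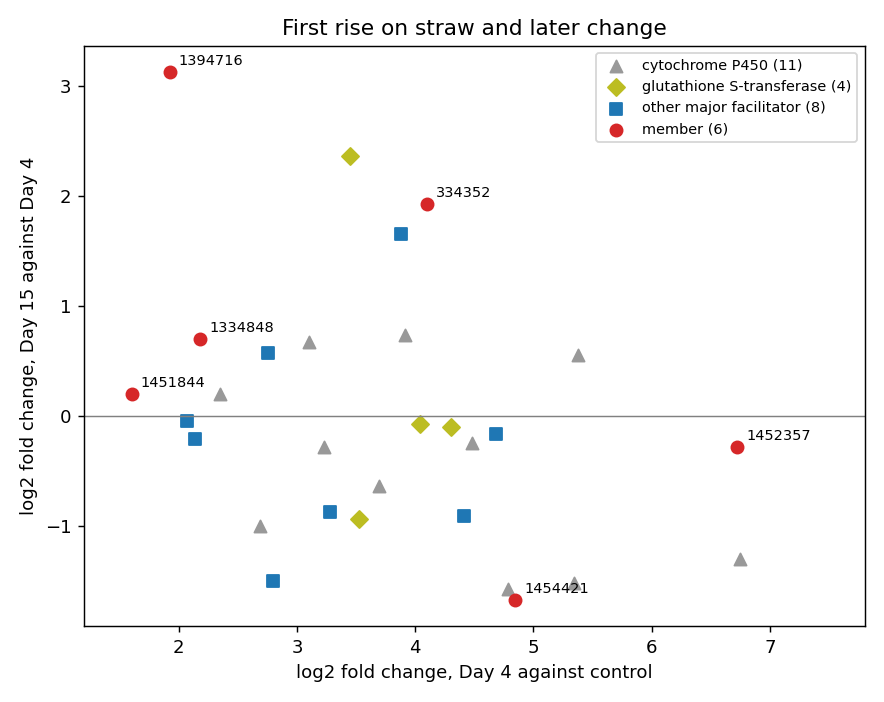
Log2 fold change from the control to Day 4 (horizontal axis) against that from Day 4 to Day 15 (vertical axis) for the 6 genes, the other 8 major facilitator genes, 11 P450 genes and 4 GST genes of the core list. Both axes use Day 4, so the 2 values of a gene share an error. The permease 1394716 stands at the upper left, with 1.92 and then 3.13, and 1454421 at the bottom, with 4.84 and then -1.68.

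For each gene, the genes with the most similar course were found among the 121 genes annotated in the study's tables. The measure was the root mean square difference of centred log2 levels over the 11 libraries, where 0 is an identical course. The control libraries are included, so the rise on straw for which the genes were chosen weighs in each distance. Many of the annotated genes come from the same core list, drawn up for a high level on straw. So do all the near genes named below except 1340324. Part of the resemblance is therefore built in. These distances are a description and say nothing of shared function. The nearest to 1452357 was 1340324, a short manganese peroxidase (0.284, with 1 of the 15461 other genes tested nearer), and the next was 1447784, a glycoside hydrolase of family GH28, the family of polygalacturonases (0.324, with 3 nearer). The nearest to the permease 1454421 was the P450 gene 1402446 (0.246, with 10 nearer), followed by 1412845 of family GH5_22 (0.297, with 12 nearer).

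The late permease 1394716 was most like 1395444, a carbohydrate esterase of family CE16 (0.371, with 4 nearer), and 1498325 of family GH27, which holds alpha-galactosidases (0.464, with 11 nearer). The closest to 334352 were the permease 540241 (0.265, with 2 nearer) and the GST gene 1357910 (0.405, with 11 nearer), the same 2 genes that led the rises of their lists. The closest to 1451844 was another permease, 1487694 (0.212, with 3 nearer), then 1399288 of the AA3_2 flavo-oxidases (0.254, with 22 nearer). For 1334848 they were 615361 of family GH3, which holds beta-glucosidases (0.250, with 26 nearer), and the major facilitator gene 1410802 (0.285, with 40 nearer). Among the 6 genes themselves, 1451844 and 1334848 were nearest by this distance (0.496) and 1452357 and 1451844 farthest apart (2.04). The distance keeps the size of each rise over the control, and 1452357 and 1451844 had the largest and smallest rises. Pearson correlation over the 11 libraries gave another order. It was highest for 334352 and 1334848 (0.992) and lowest for 1454421 and 1394716 (0.630).

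The entries next to each gene in the reference annotation (assembly Polbr1) were examined after that annotation had been seen. The 12 adjacent entries were taken by position, and 11 of them were tested. The scaffold names and strands are not in the table used here, so only distances are given. The sources used here do not say whether reads were counted by strand, and reads that fall in an overlap or near a short gap may belong to either gene.

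The largest rises at Days 10 and 15 were those of 1 neighbour each of 334352 and 1394716. The transporter 334352 lies 433 bases from 1412926, a versatile peroxidase, which is a secreted enzyme that oxidizes lignin and manganese. That peroxidase gene is on the same core list, so its distance from the control is given with no test. It stood at a log2 fold change of 7.53 ± 0.22 on Day 4, 9.62 on Day 10 and 9.42 on Day 15. It rose from Day 4 to Day 10 (2.09 ± 0.19, edgeR adjusted p = 2.4e-06) and was not called from Day 10 to Day 15 (-0.20, adjusted p = 0.399), the interval in which 334352 rose by 1.09. The gene on the other side of 334352, 1412925, is only 24 bases away and was not called in any comparison (0.16 ± 0.46 at Day 4, edgeR adjusted p = 0.770). Its counts were low (mean normalized counts of 20.0 in the control and 23.0 at Day 4), which limits what the test could detect.

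The permease 1394716 lies 663 bases from 1476467, a gene with no annotation in the tables used here. Its normalized counts were between 541 and 600 in the control, between 8059 and 8477 at Day 4, between 45113 and 69407 at Day 10 and between 84397 and 102759 at Day 15, with no overlap between any groups. It rose from Day 4 to Day 10 by 2.87 (edgeR adjusted p = 6.8e-08), where the permease rose by 2.89. From Day 10 to Day 15 it rose by a further 0.65 (adjusted p = 0.00514), where the permease was not called. The gene on the other side, 1459704, at 146 bases, was 0.09 above the control at Day 4 (adjusted p = 0.504) and rose by 0.97 at Day 15 (adjusted p = 2.3e-06).

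The transporter 1452357 overlaps 1396686 by 89 bases, and 1396686 rose over the control by 4.48 at Day 4 (edgeR adjusted p = 3.2e-10), 3.83 at Day 10 and 4.33 at Day 15. From Day 4 to Day 10 it fell by 0.65 (adjusted p = 0.00723; 0.0846 without the second Day 4 library), and 1452357 fell by 0.70. Because the 2 genes overlap, the share of reads each lends to the other cannot be told apart. The neighbours of the permease 1454421 went the other way, at low counts. At 161 bases, 202911 fell by 1.29 at Day 4 (adjusted p = 0.00368), from a mean normalized count of 53.7 in the control to 22.5. At 147 bases, 201718 was not called at Day 4 (-0.88, adjusted p = 0.0878). It fell by 1.43 at Day 15, from a mean of 29.2 in the control to 10.7. Beside 1451844, 419139 rose by 1.14 at Day 4 (adjusted p = 0.0145, and 0.0837 without the first Day 4 library), also at low counts (means of 14.5 in the control and 33.4 at Day 4). Beside 1334848, 1492582 fell by 1.35 at Day 4 and fell by 2.10 at Day 15. Of the 11 tested entries, with 1412926 among them, 4 rose and 2 fell over the control at Day 4. At both Day 10 and Day 15, 5 rose and 3 fell. Of all genes tested, 30.1% rose and 32.2% fell at Day 4, and 31.5% rose and 31.1% fell at Day 10. At Day 15 these shares were 33.0% and 33.0%. The rise of 1412926 in these counts follows from the choice of the core list, and that of 1396686 may hold reads of 1452357. The counts are therefore a description.

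**Figure D4:**
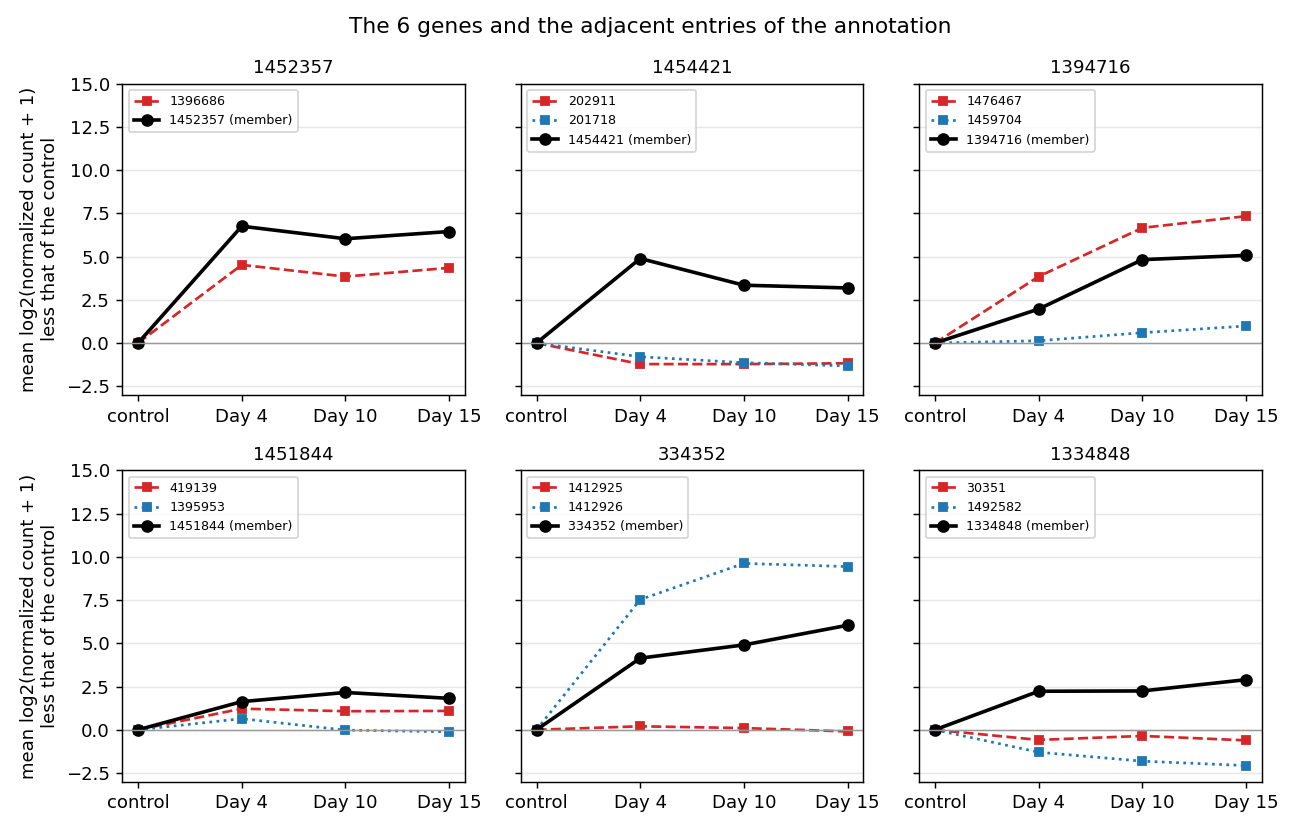
Mean log2(normalized count + 1) of each of the 6 genes (black) and of its adjacent annotated genes (coloured), less the mean of the control, by group. The versatile peroxidase 1412926 beside 334352 rises by more than 7 at Day 4, 1476467 and 1394716 both climb from Day 4 to Day 10, and the neighbours of 1454421 lie below 0 while that gene lies above.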

How the data were processed

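RNA of P. brumalis was sequenced as 11 libraries (TruSeq RNA v2), and the values analysed are read counts per gene as deposited by the authors. Per the labels and the study's methods, Sickle trimmed the reads (quality 20, length 20) after a FastQC check, TopHat2 placed them on the genome of a monokaryotic strain keeping unique mappings, and HTSeq counted them. Reads of an allele of the dikaryon that differs from that genome may be lost, and the sources used here give no versions for TopHat and HTSeq. The submitters' notes name DESeq 1.5 and the study names DESeq2 for normalization.

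The 6 genes and all lists were chosen with earlier results of these data known. After filterByExpr (minimum count 10, minimum total 15) and TMM scaling, edgeR 4.0.16 in R 4.3.3 fitted the counts with a mean for each of the 4 groups (7 residual degrees of freedom) and gave quasi-likelihood F tests with Benjamini-Hochberg adjustment at 0.05 over 15462 genes. Each SE is the size of the log2 fold change over the square root of its F, and 95% intervals are normal ones from it. All 6 genes passed the filter on low counts. Normalized counts use DESeq2 1.42.0 size factors, and levels are log2(normalized count + 1). Ratios use raw counts + 0.5. Per the labels the assays were run in triplicate, with 2 libraries for Day 4 here.

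Named were the 6 genes, the largest rise and fall of each list in a comparison, and for each of the 6 the nearest 2 annotated genes. Adjacent genes were added after the reference table was seen. Of 18244 gene numbers, 18240 matched an entry of that table. The alternatives were DESeq2 size factors, library totals or 20 single-copy genes for scaling, the DESeq2 Wald test, no filter, a filter of 50 counts, a replicate block, a fit of only the 2 groups compared, a test against a log2 fold change of 1, and each library left out. Summaries and plots used Python 3.11.15, numpy 2.4.6, pandas 2.3.3 and matplotlib 3.10.9.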

Additional observations from a re-analysis of the deposited data

Results flagged for a closer look

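The effect of straw over the control differed between days for 5 of the 6 genes, tested as the difference between Day 15 and Day 4 in the edgeR fit. Over all genes tested, 28.6% rose and 29.2% fell between these days. On the log2 scale the Day 15 effect less the Day 4 effect was 3.13 for 1394716, 1.93 for 334352, 0.70 for 1334848, -0.28 for 1452357 and -1.68 for 1454421. Both days share the control, so these are the same differences as those between the 2 straw days given above. The call on 1452357 was lost with 6 of the 11 libraries left out one at a time. The groups hold 2 or 3 libraries, too few for a test of single outlying libraries.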

How the results depend on the processing

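Across the alternatives, no change of the 6 genes between straw days turned in direction after a call. Of their 360 recomputed changes between straw days, 331 kept their side of the limit, 28 lost a call and 1 gained one. When tested against a log2 fold change of 1, the genes higher and lower were 1 and 1 from Day 4 to Day 10, and 0 and 0 from Day 10 to Day 15. From Day 4 to Day 15, 1 was lower under that test, and 1334848 was no longer called higher. With library totals as the scaling, and with the 20 single-copy genes, 1 gene was lower from Day 4 to Day 15. With the single-copy genes, or with only the 2 groups compared, 0 were lower from Day 10 to Day 15. Leaving out each library gave 1 to 2 lower from Day 4 to Day 15 and 0 to 1 lower from Day 10 to Day 15. Library totals gave a median log2 fold change of the 6 genes over the control of 2.77, 3.85 and 3.85 at Days 4, 10 and 15. They moved the median of all genes from -0.07 to -0.45 at Day 4 and the share of calls that were rises from 48.3% to 28.5%, at Day 10 from -0.02 to -0.24 and from 50.4% to 35.6%, and from Day 4 to Day 10 the median from 0.03 to 0.17. Among the lists, library totals gave 3 other major facilitator and 2 P450 genes higher and 0 GST genes lower from Day 4 to Day 10, and DESeq2 size factors gave 1 other major facilitator gene lower from Day 10 to Day 15. There the single-copy genes or only the 2 groups gave 0, with 1 P450 gene lower and 0 GST genes higher, and the replicate block gave 2 P450 genes higher and 2 GST genes lower where 0 were called. With library totals the neighbour 1459704 was at -0.29 against the control at Day 4 (adjusted p = 0.0314). The ratio test called 0 of the 15 pairs with Day 15 alone against Day 4, and 0 with any 1 straw library left out. Its smallest p is larger in these settings.

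With the replicate number as a block the counts of the 6 genes higher and lower stayed at 3 and 2, 3 and 2, and 3 and 1, and no call on them changed. Deviations of same-numbered libraries correlated at 0.0411 to 0.0695 between Days 10 and 15, 0.000116 to 0.141 between the control and Day 10, and -0.0166 to 0.0535 between the control and Day 15. Over 2 pairs each, they were 0.162 to 0.170 for Days 4 and 10, 0.0564 to 0.0652 for Days 4 and 15, and -0.0225 to 0.146 for the control and Day 4. No comparison with 3 pairs had all above 0.1. Between straw days every same-numbered value was positive, while different-numbered libraries correlated at -0.170 to 0.00872. Between the control and the straw days, different-numbered libraries correlated at -0.178 to 0.157. Deviations are taken from the group mean, so the different-numbered values are not independent of the same-numbered ones. No label ties the numbers to a shared batch, so the main fit has no replicate block. Whether same-numbered libraries shared a batch was not tested. Day 4 has 2 libraries, which limits the precision of each comparison with it.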

Other observations

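Among genes second from one of the 6 in the annotation, chosen after their values were seen, 1500721 lies 1350 bases from the permease 1454421 and ran against it between the straw days. It was 0.97 below the control on the log2 scale at Day 4 (-0.97), 2.46 above it at Day 10 and 3.23 above it at Day 15, with a rise from Day 4 to Day 10 of 3.43 (edgeR adjusted p = 1.7e-07), while 1454421 fell by 1.51. It has no annotation in the tables used here.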
